A study of Homo sapiens with 9 samples.

Results

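The complement genes C3, C1R, C1S, CFB, CFI, CD46, CD55, CD59 and SERPING1 were followed across 3 cell lines of a glioblastoma model. They were chosen by name, with earlier results of these data known, as 9 of the 60606 genes in the deposited table. U87 is an established human glioblastoma line, here unirradiated and grown in medium with 10% fetal bovine serum (FBS). GSCs were stem cells obtained from U87 that had received 13 cycles of 5 Gy and were kept without serum but with 20 ng/ml of EGF and 20 ng/ml of bFGF. Diff cells were differentiated from the irradiated GSCs in 10% FBS and so share their irradiation history. After differentiation, the cells cultured on as Diff cells were picked from clonal communities. Irradiation, medium and the derivation of stem cells cannot be told apart between U87 and the GSCs. The same holds for medium, differentiation and clonal picking between the GSCs and Diff cells. Diff cells and U87 were both grown in 10% FBS. Between them irradiation, passage through the stem cell stage, differentiation and clonal picking cannot be told apart. RNA of each line was sequenced in 3 libraries. Nothing in the sample records says that these came from separate cultures, so p-values measure the spread between libraries, which may be technical.

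Complement is a cascade of secreted proteases and their substrates that tags surfaces for removal and can end in a pore in the target membrane. C1R and C1S encode the paired serine proteases of the C1 complex, which starts the classical pathway. C3 encodes the central protein on which all pathways meet, and CFB encodes the protease of the alternative pathway. SERPING1 encodes the C1 inhibitor, CFI encodes a protease that inactivates deposited C3 and C4 fragments, and CD46, CD55 and CD59 are membrane proteins that shield a cell from complement. The liver makes most of the plasma proteins, while glial cells and many tumor cells also express complement genes.

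C3, C1R, C1S, CD46, CD55 and CD59, 6 of the 9 genes, had a mean over 1 TPM across the 9 libraries and entered the test. TPM is a level per 1000000 transcripts that is corrected for gene length, so that levels of different genes can be set side by side. CFI, CFB and SERPING1 averaged under 1 TPM and are described by their values. CD59 had the highest mean TPM of the 9 genes in each cell line. In U87 it was followed by CD46, C1R, C3, CD55, C1S, CFI, CFB and SERPING1, and no neighbours in that order overlapped between libraries. In GSCs the order was CD59, C1R, CD46, CD55, C3, C1S, CFB, CFI and SERPING1, with overlapping libraries for CD46 and CD55, for C3 and C1S, and for CFI and SERPING1. In Diff cells the order was CD59, C1R, CD46, C1S, C3, CD55, CFI, CFB and SERPING1, with overlap between CD46 and C1S and between C1S and C3. CD55 thus stood above C3 in GSCs and below it in U87 and Diff cells. In bulk RNA a lower level can come from fewer expressing cells or from less RNA per cell, and these cannot be told apart.

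**Figure D1:**
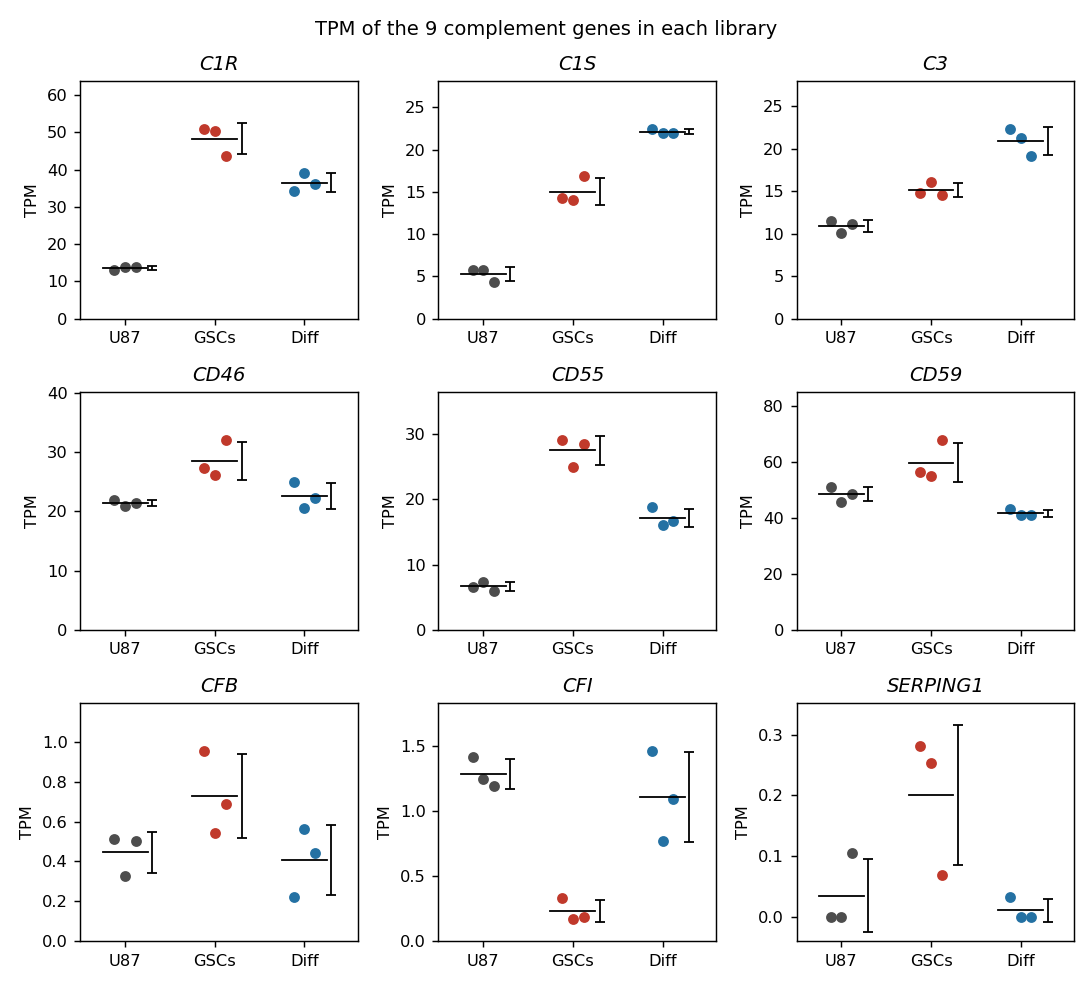
Level of each complement gene in TPM (vertical axes, linear, a separate scale per gene) in U87, GSCs and Diff cells (horizontal axis). Points are single libraries, and the horizontal bar and error bars give the mean and SD of 3 libraries. C1R, C1S, C3 and CD55 lie higher in all libraries of the GSCs and Diff cells than in U87, while CFI is lowest in GSCs, from 0.172 to 0.328 TPM. SD bars of SERPING1 reach below 0, which no level can.

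C1R, C1S and CD55 rose in both irradiated lines relative to U87, by between 2.57 and 4.18 times on the mean TPM. A gene was called when the adjusted p of limma was under 0.05 and the log2 fold change was over 1 in size, on the log2(TPM + 1) scale. In GSCs against U87, 3 of the 6 tested members were called, all higher, where 17.1% of all 22909 tested genes were called and 9.52% were called higher. Against U87, Diff cells had the same called members, C1R, C1S and CD55, 3 of 6, where 12.3% of all genes were called and 5.92% were called higher. These comparisons share the U87 libraries, and the members were chosen with earlier results known, so their counts are a description. Between the irradiated lines limma called 0 of the 6, where 8.01% of all genes were called, 2.66% higher and 5.36% lower, and all 6 had an unadjusted p under 0.05, as did 44.1% of all genes.

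By the adjusted p alone, without the limit on the fold, all 6 tested members passed as higher in GSCs, where 48.6% of all genes passed in either direction and 25.3% passed as higher. For Diff cells and U87, C3 joined the 3 called genes, giving 4 of 6 higher, where 39.4% of all genes passed and 18.9% passed as higher. Between GSCs and Diff cells all 6 passed, with C3 and C1S higher in Diff cells and C1R, CD46, CD55 and CD59 lower there, where 34.8% of all genes passed, 15% as higher and 19.8% as lower. The libraries of the 2 lines compared were separate without overlap for 6 of 6 members in GSCs and U87, for 5 of 6 in Diff cells and U87, and for 6 of 6 in Diff cells and GSCs. Among all tested genes 55.8%, 55.2% and 46.7% did not overlap in these comparisons. The median log2 fold change of the 6 members was 0.90 for GSCs and 1.06 for Diff cells, each against U87, and −0.36 for Diff cells against GSCs. Over all tested genes the medians were 0.017, −0.036 and −0.056.

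**Figure D2:**
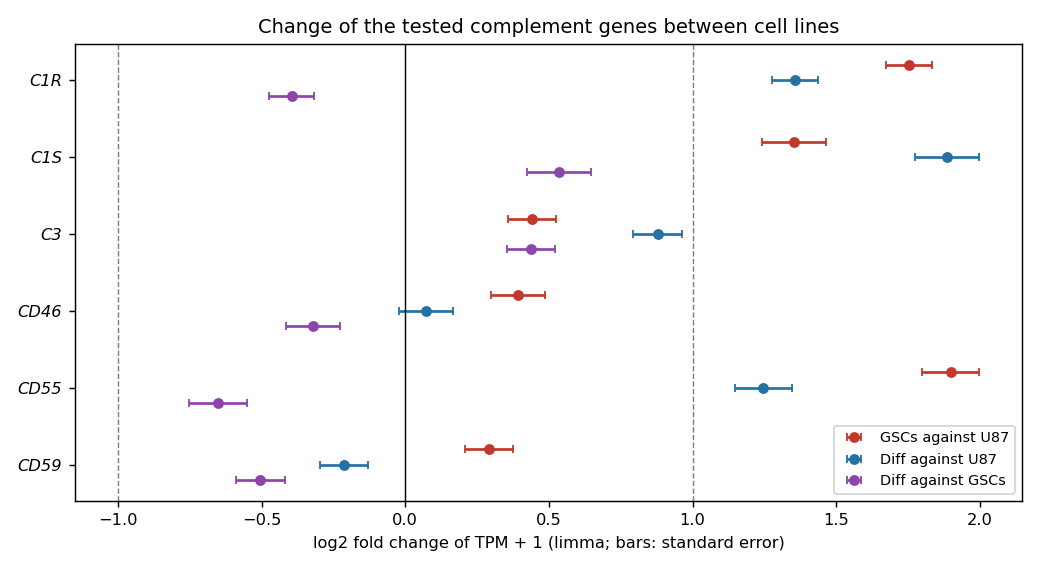
Log2 fold change of the 6 tested complement genes on the log2(TPM + 1) scale (horizontal axis) with its standard error from limma (error bars) for GSCs against U87, Diff cells against U87 and Diff cells against GSCs. Dashed lines mark a log2 fold change of 1 in each direction. C1R, C1S and CD55 lie beyond 1 in both comparisons with U87, from 1.25 to 1.90, and no gene lies beyond 1 between Diff cells and GSCs.

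C1R, the protease that is activated first within C1, measured 13.1, 13.9 and 13.9 TPM in the U87 libraries. In GSCs it measured 51.0, 50.4 and 43.6 TPM, and in Diff cells 34.2, 39.2 and 36.0 TPM. The 3 lines did not overlap, with the GSCs highest. The means were 13.6 ± 0.480, 48.3 ± 4.14 and 36.5 ± 2.56 TPM (SD, n = 3 each). C1R rose 3.55 times in GSCs (log2 fold change 1.75, SE 0.0798, limma adjusted p = 4.74e-07) and 2.68 times in Diff cells (1.36, adjusted p = 3.09e-06). From GSCs to Diff cells it fell by 0.40 on the log2 scale (limma adjusted p = 0.00517).

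C1R lies on chromosome 12, minus strand, at 7080199 to 7092607 (GRCh38, GENCODE 29), and 11.4% of its exonic bases also belong to exons of C1RL on the same strand, so reads there are uncertain between these genes. RefSeq (GRCh38.p14) gives 2 start windows of C1R, shown because C1R rose in both irradiated lines, each as the 250 bases before a start on the minus strand. Capitals mark a match to TTCNNNGAA, the GAS motif read by STAT factors, which is the same on both strands.
C1R, chr12:7092446-7092695: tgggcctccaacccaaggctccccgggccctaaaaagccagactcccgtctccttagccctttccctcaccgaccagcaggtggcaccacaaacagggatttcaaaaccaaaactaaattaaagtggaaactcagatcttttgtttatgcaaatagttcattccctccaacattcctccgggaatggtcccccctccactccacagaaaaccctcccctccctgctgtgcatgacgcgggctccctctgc
C1R, chr12:7091894-7092143: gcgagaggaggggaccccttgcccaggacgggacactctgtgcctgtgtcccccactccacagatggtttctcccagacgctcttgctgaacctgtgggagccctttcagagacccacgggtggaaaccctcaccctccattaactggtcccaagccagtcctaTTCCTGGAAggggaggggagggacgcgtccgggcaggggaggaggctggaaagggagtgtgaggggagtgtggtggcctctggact
The second window holds the GAS letters 86 to 78 bases before the start, and 6.57% of all 35116 RefSeq windows of that length hold them. The first window holds none of the 7 motifs searched. RefSeq windows of CD59, which was not called in any comparison, also hold GAS letters.

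C1S, the protease that C1R cleaves and that then cuts C4 and C2, measured 5.77, 5.75 and 4.37 TPM in U87. In GSCs it measured 14.2, 14.0 and 16.9 TPM, and in Diff cells 22.5, 22.0 and 21.9 TPM. The lines did not overlap and, unlike C1R, the highest values were those of Diff cells. The means were 5.29 ± 0.805, 15.0 ± 1.59 and 22.1 ± 0.313 TPM (SD, n = 3 each). C1S rose 2.84 times in GSCs (log2 fold change 1.35, SE 0.112, limma adjusted p = 1.56e-05) and 4.18 times in Diff cells (1.89, adjusted p = 3.28e-06). From GSCs to Diff cells it rose by a log2 fold change of 0.53 (limma adjusted p = 0.00627). C1S lies on chromosome 12 at 6988259 to 7071032 on the plus strand, next to C1R and on the opposite strand, and 3.54% of its exonic bases are shared with EMG1.

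Both proteases moved upward from U87, but their proportion was not the same in each line. The ratio of C1R to C1S TPM within a library was 2.26, 2.41 and 3.18 in U87 and 3.59, 3.61 and 2.58 in GSCs. In Diff cells it was 1.52, 1.78 and 1.64, below every library of both other lines. The mean ratios were 2.62 ± 0.491, 3.26 ± 0.583 and 1.65 ± 0.132 (SD, n = 3 each). With 3 libraries against 3 the exact two-sided permutation test cannot go below p = 0.1, and it gave 0.1 for Diff cells against U87 and against GSCs, or 0.129 adjusted over 9 comparisons of ratios. For GSCs against U87 the ratios overlapped and the exact p was 0.2. The sum of both proteases was 18.9 ± 0.703 TPM in U87, 63.4 ± 2.57 in GSCs and 58.6 ± 2.36 in Diff cells (SD, n = 3 each).

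C3 measured 11.5, 10.1 and 11.1 TPM in U87. It measured 14.9, 16.1 and 14.6 TPM in GSCs and 22.4, 21.2 and 19.2 TPM in Diff cells. The libraries formed 3 separate steps without overlap. The means were 10.9 ± 0.731, 15.2 ± 0.827 and 20.9 ± 1.64 TPM (SD, n = 3 each). C3 rose 1.39 times in GSCs (log2 fold change 0.44, SE 0.0841, limma adjusted p = 0.00236) and 1.92 times in Diff cells (0.88, adjusted p = 5.38e-05), both under the limit on the fold. From GSCs to Diff cells C3 rose by 0.44 on the log2 scale (limma adjusted p = 0.00413). C3 lies on chromosome 19 at 6677704 to 6730562 on the minus strand, with no exon shared with another gene.

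CFB stayed near the bottom of the range. It measured 0.511, 0.326 and 0.501 TPM in U87, 0.957, 0.542 and 0.689 TPM in GSCs, and 0.219, 0.566 and 0.441 TPM in Diff cells. The GSCs libraries lay above those of U87, while those of Diff cells overlapped with both. The means were 0.446 ± 0.104, 0.729 ± 0.210 and 0.409 ± 0.176 TPM (SD, n = 3 each). The exact permutation p was 0.1 for GSCs against U87, 0.7 for Diff cells against U87 and 0.2 for Diff cells against GSCs, and limma without the filter gave adjusted p from 0.272 to 1. CFB lies on chromosome 6 at 31945650 to 31952084, plus strand, and 45.5% of its exonic bases are shared with C2 and AL645922.1, so its level is uncertain.

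The 250 bases before the CFB start are shown because this alternative pathway gene is known to respond to inflammatory signals through its promoter. Its level here stayed under 1 TPM in every library, and the activity of such signals was not tested. Capitals mark, from left to right, a match to the κB consensus 112 to 103 bases before the start, the GAS letters 92 to 84 bases before it and the TATA box letters TATAAA 30 to 25 bases before it.
CFB, chr6:31945845-31946094, plus strand: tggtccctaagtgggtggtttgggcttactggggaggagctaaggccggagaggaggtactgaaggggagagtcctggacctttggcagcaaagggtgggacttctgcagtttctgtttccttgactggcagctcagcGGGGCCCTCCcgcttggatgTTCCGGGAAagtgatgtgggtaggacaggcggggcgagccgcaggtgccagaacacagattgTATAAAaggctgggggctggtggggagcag
Of all windows, 9.96% hold the κB consensus and 10.7% hold TATAAA on either strand. The matches are letters in a window and no binding was measured.

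CD55, which speeds the decay of the convertases that cleave C3, showed the largest fold of the tested members in GSCs. It measured 6.62, 7.40 and 5.99 TPM in U87, 29.2, 25.01 and 28.5 TPM in GSCs, and 18.8, 16.1 and 16.6 TPM in Diff cells. The lines did not overlap, with Diff cells between the other two. The means were 6.67 ± 0.705, 27.6 ± 2.23 and 17.2 ± 1.43 TPM (SD, n = 3 each). CD55 rose 4.13 times in GSCs (log2 fold change 1.90, SE 0.0996, limma adjusted p = 1.05e-06) and 2.57 times in Diff cells (1.25, adjusted p = 1.83e-05). From GSCs to Diff cells it fell by 0.65 on the log2 scale (limma adjusted p = 0.00125).

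The 250 bases before the CD55 start are shown because its change was the largest of the tested members in GSCs. Capitals mark the letters CCGCCC, the GC box GGGCGG read on the other strand, 46 to 41 bases before the start.
CD55, chr1:207321428-207321677, plus strand: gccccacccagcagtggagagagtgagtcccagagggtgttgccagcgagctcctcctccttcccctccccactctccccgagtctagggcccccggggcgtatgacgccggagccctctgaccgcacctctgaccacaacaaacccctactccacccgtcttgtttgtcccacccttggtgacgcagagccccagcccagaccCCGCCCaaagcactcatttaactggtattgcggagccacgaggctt
A GC box is in 42.6% of all windows. The other motifs searched on both strands were not in this window, which says only that their letters are not there. Besides those named above they were AP-1, spelled TGANTCA and held by 6.57% of all windows. The E-box, spelled CACGTG, was held by 6.34%. The CCAAT box, spelled CCAAT, was held by 32%. RefSeq windows were given for 6 of the 9 genes, C1R, CFB, CFI, CD46, CD55 and CD59.

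CD46, a cofactor for the cleavage of C3 and C4 fragments by CFI, moved far less than CD55. It measured 21.9, 21.0 and 21.4 TPM in U87, 27.4, 26.1 and 32.1 TPM in GSCs, and 25.005, 20.6 and 22.3 TPM in Diff cells. Only the GSCs libraries stood apart, above all others, while U87 and Diff cells overlapped. The means were 21.4 ± 0.479, 28.5 ± 3.16 and 22.6 ± 2.23 TPM (SD, n = 3 each). CD46 rose 1.33 times in GSCs (log2 fold change 0.39, SE 0.0943, limma adjusted p = 0.00800), and for Diff cells against U87 the log2 fold change was 0.07 (adjusted p = 0.592). From GSCs to Diff cells it fell by 0.32 (limma adjusted p = 0.0284), which missed the threshold when some single libraries were left out. The adjusted p was 0.0516 without GSCs replicate 1, 0.0563 without GSCs replicate 3, 0.1002 without Diff replicate 2 and 0.0799 without Diff replicate 3. In these fits the log2 fold change kept its sign, from −0.35 without GSCs replicate 1 to −0.24 without GSCs replicate 3.

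CD59, which blocks the last step of pore formation, was the most abundant member. It measured 50.9, 45.7 and 48.6 TPM in U87, 56.2, 55.0 and 67.8 TPM in GSCs, and 43.0, 40.9 and 40.9 TPM in Diff cells. The GSCs lay above U87 and Diff cells lay below it, without overlap. The means were 48.4 ± 2.61, 59.7 ± 7.10 and 41.6 ± 1.23 TPM (SD, n = 3 each). The log2 fold change was 0.29 in GSCs against U87 (SE 0.0840, limma adjusted p = 0.0189) and −0.21 in Diff cells against U87 (adjusted p = 0.0762). Directly between the irradiated lines, CD59 fell by 0.50 from GSCs to Diff cells (limma adjusted p = 0.00197). In both comparisons with U87 the side of the threshold changed when a single library was left out. The adjusted p for GSCs was 0.0659 without U87 replicate 2. That for Diff cells was 0.00960 without GSCs replicate 3, a library that enters only through the shared estimate of spread.

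The 3 membrane regulators together measured 76.5 ± 2.74 TPM in U87, 116 ± 11.5 in GSCs and 81.4 ± 4.81 in Diff cells (SD, n = 3 each). Their proportions shifted toward CD55 in both irradiated lines. CD55 made up 8.73 ± 1.11% of the sum in U87, 23.9 ± 1.86% in GSCs and 21.1 ± 0.496% in Diff cells, and the share of CD59 was 63.2%, 51.5% and 51.2%. The ratio of CD55 to CD46 was 0.312 ± 0.0373 in U87, 0.970 ± 0.0900 in GSCs and 0.760 ± 0.0199 in Diff cells (SD, n = 3 each). No libraries overlapped between lines in this ratio. Each of its 3 comparisons gave the smallest exact permutation p, 0.1, or 0.129 adjusted over the 9 comparisons of ratios. The ratio of CD55 to CD59 was 0.138 ± 0.0206 in U87, 0.465 ± 0.0501 in GSCs and 0.412 ± 0.0221 in Diff cells (SD, n = 3 each). It was separate in both comparisons with U87 (exact permutation p = 0.1 each) but overlapped between GSCs and Diff cells (exact permutation p = 0.2).

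**Figure D3:**
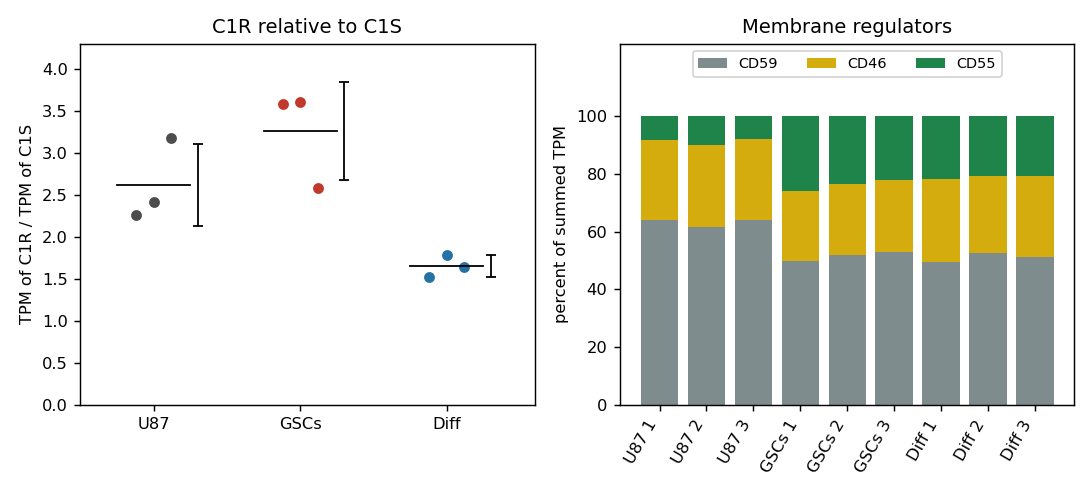
Composition of complement transcripts in each library. The plots give the ratio of C1R to C1S TPM and the share of CD46, CD55 and CD59 in their summed TPM (percent), each by library of U87, GSCs and Diff cells. The C1R to C1S ratio is lowest in Diff cells, from 1.52 to 1.78, and CD55 takes 7.88 to 9.98% of the regulators in U87 and 20.8 to 25.9% in the irradiated lines.

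CD55 and CD46 lie on the same strand of chromosome 1, CD55 at 207321376 to 207386804 and CD46 at 207752057 to 207795513, with no exon shared with another gene. The genes around them also differed between the lines. Of the 24 tested genes nearest to CD55, 12 on each side, 10 were called higher and 1 lower in GSCs against U87. Among all tested genes 17.1% were called and 9.52% were called higher. The median log2 fold change of the 24 was 0.60, against 1.90 for CD55, and 22 of the 24 lay below CD55. For Diff cells the median was 0.33 and 18 of the 24 lay below CD55. For CD46 the neighbours' median in GSCs was 0.73, above its own 0.39. With 25 genes on each side the medians in GSCs were 0.25 around CD55 and 0.28 around CD46. Of these 50 genes around CD55, 10 were called higher and 4 lower. The part of copy number in these values was not tested.

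The stretch around C1R and C1S differed less from U87. Among the 24 genes nearest to C1R the median change from U87 on the log2 scale was 0.08 for GSCs and −0.08 for Diff cells. All 24 lay below C1R in GSCs, and 23 of 24 did so in Diff cells, the exception being C1S. With 25 genes on each side the median for Diff cells was −0.21, with 36 of 50 genes below 0. For Diff cells against GSCs the 24 neighbours of C1R had a median of −0.40, with 17 below 0, the same value as C1R itself, and 12 of them lay below C1R and 12 above it. The fall of C1R between the irradiated lines was thus near the median of its 24 nearest genes. The wider window, 25 genes on each side, had a median of −0.24, and 21 of these 50 lay below C1R and 29 above it. C1S, at 0.53, lay above all 24 of its own nearest genes. C1RL, the protease-like neighbour that shares exons with C1R, measured 19.7 ± 1.19 TPM in U87, 26.8 ± 0.483 in GSCs and 17.6 ± 0.983 in Diff cells (SD, n = 3 each). Its log2 fold change was 0.42 in GSCs (limma adjusted p = 0.000921) and −0.16 in Diff cells (adjusted p = 0.104). Around C3 the neighbours' medians were 0.14 and 0.23, and around CD59 they were 0.08 and −0.20, close to the −0.21 of CD59 itself in Diff cells.

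**Figure D4:**
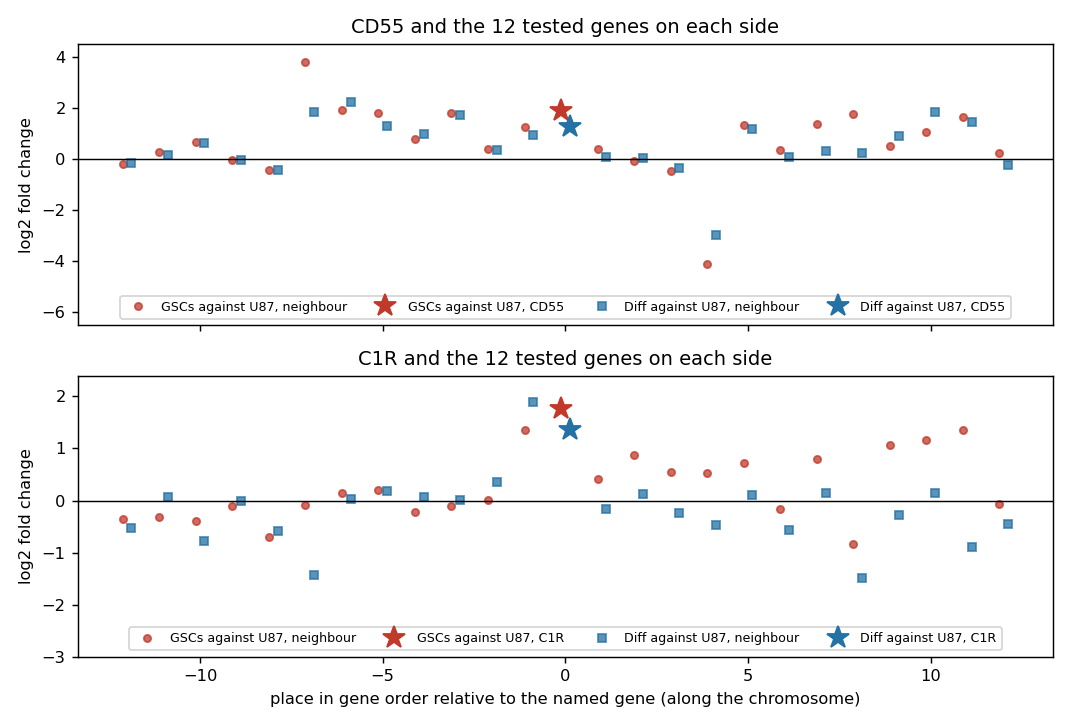
Log2 fold change (vertical axes) of CD55 (upper plot, star) and C1R (lower plot, star) with the 12 tested genes on each side in gene order (horizontal axis), for GSCs and Diff cells against U87. Around CD55 most genes lie above 0, with a median of 0.60 in GSCs, while around C1R the median in GSCs is 0.08, and C1S, directly beside it, is the one gene above C1R in Diff cells.

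CFI, the fluid-phase protease that needs cofactors such as CD46, was lowest in GSCs. It measured 1.42, 1.25 and 1.19 TPM in U87, 0.328, 0.172 and 0.188 TPM in GSCs, and 1.46, 0.770 and 1.09 TPM in Diff cells. The GSCs lay below every library of both other lines, which overlapped with each other. The means were 1.29 ± 0.119, 0.229 ± 0.0856 and 1.11 ± 0.347 TPM (SD, n = 3 each), a mean 5.61 times higher in U87 than in GSCs. The exact permutation p was 0.1, the smallest possible, for GSCs against both other lines, and 0.5 for Diff cells against U87. With no filter on low values, limma gave a log2 fold change of −0.90 in GSCs against U87 (adjusted p = 0.00582) and 0.77 in Diff cells against GSCs (adjusted p = 0.0184). Reads behind levels this low are few and their number is unknown. CFI lies on chromosome 4 at 109740694 to 109802179, minus strand, and 32.0% of its exonic bases are shared with AC126283.2.

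SERPING1, whose product inhibits C1R and C1S, was listed at 0 in U87 replicates 1 and 2 and at 0.105 TPM in replicate 3. In GSCs it measured 0.281, 0.253 and 0.0691 TPM, and in Diff cells it was 0.0321 TPM in replicate 1 and listed at 0 in the others. The GSCs and U87 libraries overlapped, and those of Diff cells lay below the GSCs. The exact permutation p was 0.2 for GSCs against U87, 1 for Diff cells against U87 and 0.1 for Diff cells against GSCs, and limma without the filter gave adjusted p of 0.115, 1 and 0.0976. A transcript of the C1 inhibitor was therefore near the floor of the table in all lines, beside C1R and C1S sums of 18.2 to 65.3 TPM. SERPING1 lies on chromosome 11 at 57597387 to 57614853, plus strand.

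The genes whose pattern over the 9 libraries was most like that of a member are given by Pearson r of log2(TPM + 1), as a description, since the points are 3 lines of 3 libraries and any gene with a like pattern of means over the lines scores high. For CD55 these were RND3 (r = 0.998), CBLB (0.998) and VSIG10L (0.997), and CBLB, a ubiquitin ligase, measured 15.2, 43.5 and 30.1 TPM on average in U87, GSCs and Diff cells. For C1R they were SIGLEC22P, SHC2 and MMP11 (0.997 each), and MMP11, a matrix metalloproteinase, measured 0.919, 8.35 and 6.20 TPM. For C1S they were RPS15AP14 (0.998), GNPTAB (0.997) and C3orf85 (0.997), and GNPTAB, a subunit of the enzyme that tags lysosomal proteins, measured 16.7, 61.1 and 96.2 TPM. For C3 they were MGAT5B (0.998), CHST12 (0.992) and EPN3 (0.989), for CD46 TMEM128 (0.990), STK38L (0.984) and ZFAND1 (0.983), and for CD59 ADNP (0.990), SLC35F4 (0.989) and MTHFD2L (0.988). Among the members, C1R was closest to CD55 (r = 0.974) and C1S to C3 (r = 0.934).

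Of 53 other complement genes, from the recognition molecules to the receptors, 35 were never over 1 TPM in any library, 10 of them at 0 throughout, and 12 entered the test. Low levels were common in the whole table, where 18182 of the 60606 genes were at 0 throughout and 22909 entered the test. C1QA and C1QC, chains of the recognition protein that C1R and C1S attach to, were at 0 in all 9 libraries and C1QB was at most 0.0648 TPM. C4A was at most 0.384 TPM, C4B at most 0.0202 TPM and C2 at most 0.528 TPM. The listed levels of the genes of the C1S substrates thus stayed under 1 TPM throughout. C2 shares exonic bases with CFB on the same strand, so reads there are uncertain between these genes. The pore component C7 was at most 0.631 TPM and C9 at most 0.700 TPM, while C8G reached 1.64 TPM in a GSCs library and C5, from which pore assembly starts, measured 2.02 to 3.22 TPM. In GSCs against U87, 3 of the 12 were called higher and none lower, namely THBD, C3AR1 and ITGAX. Of all tested genes 17.1% were called there and 9.52% were called higher. An unadjusted p under 0.05 was found for 9 of the 12 and for 54.7% of all genes. In Diff cells THBD and ITGAX, 2 of the 12, were called higher than in U87, where 12.3% of all genes were called and 5.92% higher. Between Diff cells and GSCs only ITGAX was called, as lower, 1 of the 12, where 8.01% of all genes were called and 5.36% lower. The median log2 fold changes of the 12 were 0.15, −0.11 and −0.27.

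THBD encodes thrombomodulin, a membrane protein that also promotes the inactivation of C3 by CFI. It measured 1.08, 1.46 and 1.10 TPM in U87, 6.69, 6.96 and 6.84 in GSCs, and 4.63, 5.21 and 3.92 in Diff cells. The lines did not overlap, and the log2 fold changes against U87 were 1.83 in GSCs (limma adjusted p = 5.95e-06) and 1.33 in Diff cells (adjusted p = 5.68e-05). With a pseudocount of 5 they were 0.93 and 0.62, under the limit on the fold. CSMD2, a large membrane protein of the CSMD family, measured 140 ± 7.36 TPM in U87, 246 ± 27.8 in GSCs and 133 ± 4.82 in Diff cells (SD, n = 3 each). It rose by 0.80 on the log2 scale in GSCs (limma adjusted p = 6.10e-05), and its log2 fold change was −0.07 in Diff cells (adjusted p = 0.568). CLU, encoding clusterin, an inhibitor of pore assembly, had the highest level of the fluid-phase regulators, with 159 ± 9.03 TPM in U87, 93.3 ± 6.03 in GSCs and 104 ± 4.02 in Diff cells (SD, n = 3 each). CLU fell by 0.76 on the log2 scale in GSCs (limma adjusted p = 1.85e-05) and fell by 0.61 in Diff cells (adjusted p = 0.000106). C1QBP, which binds the C1q heads, measured 74.9 ± 6.15, 58.9 ± 1.57 and 80.3 ± 7.28 TPM in U87, GSCs and Diff cells (SD, n = 3 each), and its log2 fold change was −0.34 in GSCs against U87 (limma adjusted p = 0.00791). The directions of the regulators were thus not uniform.

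The receptors for the fragments released from C3 and C5 moved apart. C3AR1 measured 8.08, 8.96 and 7.33 TPM in U87, 22.0, 20.5 and 26.1 in GSCs, and 12.5, 14.4 and 16.0 in Diff cells. Its log2 fold changes against U87 were 1.38 in GSCs (limma adjusted p = 2.32e-05) and 0.74 in Diff cells (adjusted p = 0.00135). C5AR1 measured 16.7, 16.5 and 16.7 TPM in U87, 7.54, 7.50 and 10.4 in GSCs, and 9.09, 8.99 and 10.1 in Diff cells. U87 lay above both irradiated lines, which overlapped, with C5AR1 falling by 0.91 on the log2 scale in GSCs (limma adjusted p = 0.000263) and by 0.76 in Diff cells (adjusted p = 0.000976). ITGAX, the alpha chain of a leukocyte integrin that binds inactivated C3, measured 26.2 ± 4.45 TPM in U87, 525 ± 61.9 in GSCs and 139 ± 0.851 in Diff cells (SD, n = 3 each). Its log2 fold changes were 4.28 in GSCs and 2.39 in Diff cells against U87, and −1.90 between Diff cells and GSCs (limma adjusted p = 1.33e-05).

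**Figure D5:**
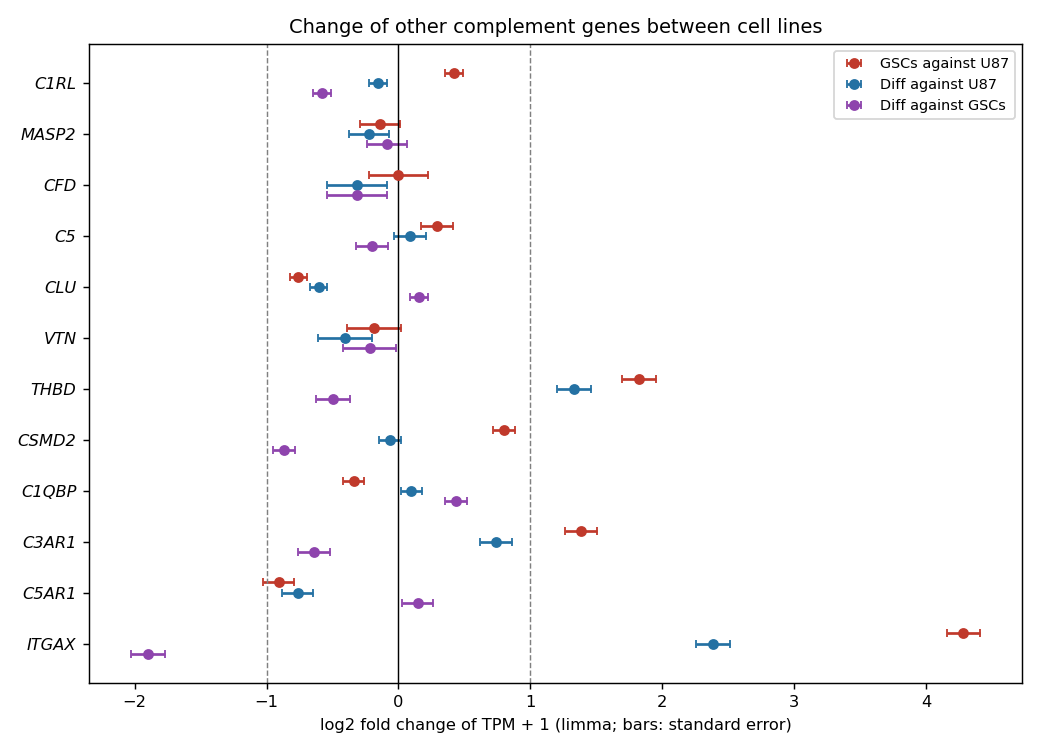
Log2 fold change on the log2(TPM + 1) scale, with its standard error from limma, of the 12 other complement genes that were tested, for the 3 comparisons. THBD, C3AR1 and ITGAX exceed 1 in GSCs against U87, ITGAX reaching 4.28, while CLU and C5AR1 lie below 0 in both comparisons with U87.

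Marker genes of cell types that make complement were read beside these values. Of 9 microglia and macrophage markers, TYROBP, C1QA and C1QC were at 0 in every library and only CSF1R exceeded 1 TPM. Their sum was 13.4 to 16.9 TPM in U87, 4.75 to 5.50 in GSCs and 9.42 to 11.5 in Diff cells. CSF1R made up most of it, with means of 15.0, 4.68 and 9.77 TPM, and its relation to the complement values was not tested. Of 5 hepatocyte markers only SERPINA1 exceeded 1 TPM, and the sums were 21.4 to 22.4, 11.4 to 12.5 and 9.15 to 9.56 TPM. The 4 fibroblast markers summed to 678 to 804 TPM in U87, 178 to 201 in GSCs and 470 to 479 in Diff cells. COL1A1 carried the fall of this sum, with means of 497, 27.7 and 157 TPM, while COL1A2, DCN and LUM were each higher in Diff cells than in U87, LUM at 24.3 against 1.36 TPM. The 3 endothelial markers summed to 2.66 to 4.41, 16.4 to 18.9 and 4.13 to 5.55 TPM, with VWF at 11.0 to 12.05 TPM in GSCs, and their part in the higher values in GSCs was not tested.

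The labels of the lines were also set against their markers. PROM1 and SOX2 were higher in GSCs than in both other lines but stayed under 1 TPM, at most 0.596 and 0.994 TPM. FABP7, at 4.38 to 5.82 TPM in GSCs, was also higher there than in both other lines. For the stemness of the GSCs the paper cites fluorescence staining of CD133 (encoded by PROM1), SOX2 and FABP7, which is not RNA. Other markers of this list went other ways. NES and SALL2 had lower means in GSCs than in U87, at 22.6 against 33.0 TPM and 1.64 against 2.05 TPM. POU3F2 was highest in Diff cells, at 6.48 against 3.25 TPM in GSCs, and OLIG2 overlapped between GSCs and U87. The sum of the 7 stem cell markers, of which NES was the largest, did not set the GSCs apart. It was 41.1 to 45.9 TPM in U87, 40.1 to 44.6 in GSCs and 28.0 to 29.6 in Diff cells. The 4 neuronal markers summed to 10.2 to 13.7, 12.7 to 13.2 and 26.5 to 27.5 TPM. MAP2 carried the higher sum in Diff cells, with means of 7.95, 8.22 and 21.7 TPM. TUBB3 overlapped between GSCs and Diff cells, with means of 3.74, 4.66 and 5.22 TPM, and RBFOX3 and DCX stayed under 1 TPM. The 4 astrocytic markers summed to no more than 2.68 TPM in any library. Correlations of log2(TPM + 1) between libraries were 0.956 to 0.971 within a line and 0.846 to 0.922 between lines. Mitochondrial genes held 25.9 to 31.8% of all TPM and 7SL RNA genes held 6.17 to 11.5%.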

How the data were processed

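The authors sequenced RNA from 3 libraries each of U87, GSCs and Diff cells. Per the labels, RNA was extracted with Magzol, ribosomal RNA was removed and directional paired-end libraries were made, whereas the study's methods name Trizol and oligo(dT) beads. The submitters' processing notes list FastQC 0.11.9, Trimmomatic 0.39, HISAT2 2.2.1, featureCounts 2.0.5, R 4.2.0 and GRCh38. The annotation and the strand setting of the counting are not given in the sources used here. The authors deposited log2(TPM + 1) for 60606 genes, and the back-transformed TPM summed to 1000000 in each library, so the depth is unknown and no counting error could be computed.

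Tests used limma 3.58.1 (lmFit and eBayes, trend on; R 4.3.3) on the 22909 genes whose TPM averaged over 1, with all 9 libraries in a single model and Benjamini-Hochberg adjustment within each of the 3 comparisons. Fold changes are on the log2(TPM + 1) scale, with a pseudocount of 1, and understate the change of low genes. Ratios and genes under the filter were compared by exact two-sided permutation tests in scipy 1.17.1. Gene positions are those of GENCODE 29. Promoter windows of 250 bases came from RefSeq GRCh38.p14 and were searched on both strands for the κB consensus, GAS, AP-1, E-box, CCAAT, TATA and GC box letters. Tables were handled with Python 3.11.15, pandas 2.3.3 and numpy 2.4.6, and figures drawn with matplotlib 3.10.9. The limma script was tested on simulated data.

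The members, the list of other complement genes and the marker lists were chosen with earlier results of these data known, and the lists come from general knowledge. Genes named were all members, called genes of the other complement list and others of it averaging over 1 TPM where a sentence needed them, the 3 genes most like each tested member, and complement genes beside C1R, C1S, CD46 and CD55. Listed genes under 1 TPM that the text names were chosen after their values were seen. Alternatives covered the filter, the pseudocount, the scaling, the trend, the libraries in the fit, the replicate numbers, the call rule and the omission of each library. The filter at over 1 TPM in 3 libraries was added after seeing the data.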

Additional observations from a re-analysis of the deposited data

Results flagged for a closer look

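The CD59 libraries of GSCs and of Diff cells lay on opposite sides of those of U87. All 3 GSCs libraries (55.0 to 67.8 TPM) lay above all U87 libraries (45.7 to 50.9 TPM), and all 3 libraries of Diff cells (40.9 to 43.0 TPM) lay below them. Against U87 the limma adjusted p was 0.0189 for GSCs, which became 0.0659 without U87 replicate 2 and 0.0568 with no filter, and 0.0762 for Diff cells. The difference between the irradiated lines was tested directly, with a log2 fold change of −0.50 for Diff cells against GSCs and a limma adjusted p of 0.00197. This difference stayed past the threshold in all 20 alternatives, from −0.56 to −0.41. Groups of 3 libraries are too small for a test of single outlying libraries.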

How the results depend on the processing

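C3, C1R, C1S and CD55 kept their direction and their side of the adjusted p threshold in all 20 alternatives in each comparison. Leaving out any library gave 3, 3 and 0 called members in GSCs against U87, Diff cells against U87 and Diff cells against GSCs. By the adjusted p alone the counts were 6, 4 and 6, and for the other complement genes 8, 5 and 6 against 3, 2 and 1. With a pseudocount of 5, C1S (0.96) in GSCs and CD55 (0.93) in Diff cells dropped under the fold limit, leaving 2 called members in each. With TPM rescaled without 7SL and mitochondrial genes, CFI entered the test and was called lower in GSCs than in U87 (−1.18, limma adjusted p = 0.00125), giving 4, and higher in Diff cells than in GSCs, giving 1. THBD was not tested with a mean TPM over 5 and dropped under the fold limit with a pseudocount of 5 (0.93 and 0.62), which left 2 called other complement genes in GSCs and 1 in Diff cells against U87 in both settings. In Diff cells against GSCs 3 were called with no filter, 3 with the filter at over 1 TPM in 3 libraries and 2 with the rescaled TPM.

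CD59 in GSCs against U87 missed the threshold with no filter (limma adjusted p = 0.0568), and in Diff cells against U87 it passed with quantile normalization (0.0492) and with only the libraries compared (0.0165). CD46 in Diff cells against GSCs missed it with no filter (0.0796), with the rescaled TPM (0.0703) and with only the libraries compared (0.0688). The causes were not tested. Signs turned for uncalled genes only, among the members and the other complement genes. CFD in GSCs against U87 (0.00031) was −0.010 with a pseudocount of 5 and with median-ratio scaling, −0.049 with quantile normalization, −0.021 with the rescaled TPM, and from −0.13 to 0.25 with single libraries left out. VTN in the same comparison ran from −0.38 to 0.0039 without single libraries, the latter without GSCs replicate 2. MASP2 in Diff cells against GSCs was 0.053 with quantile normalization and from −0.20 to 0.033 without single libraries, above 0 without Diff replicate 2 (0.028) or GSCs replicate 3.

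Over all genes, 3908, 2812 and 1836 were called, 11129, 9024 and 7982 by the adjusted p alone, 2254, 1583 and 1038 with a mean TPM over 5, and 1707, 1146 and 673 with a pseudocount of 5. The replicate numbers did not pair the libraries, since deviations of same-numbered libraries correlated at −0.042 to 0.049. With the replicate block 3, 3 and 0 members and 3, 2 and 1 other complement genes were called, and 3917, 2810 and 1831 genes in all. TPM keeps no depth, so the error of levels under 1 TPM, as for CFI, CFB and SERPING1, is known only from the spread of 3 libraries.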

Other observations

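Some complement genes had too low a mean to be tested and are given here by their values. ITGB2, the beta chain with which ITGAX forms a receptor, measured 0.124, 0.0395 and 0.173 TPM in U87, 0.278, 0.215 and 0.205 in GSCs, and 2.05, 2.56 and 1.79 in Diff cells. Diff cells lay above both other lines, whereas ITGAX was highest in GSCs, from 454 to 563 TPM. ITGAM, the alpha chain of the related receptor, was at most 0.408 TPM. With no filter, limma put ITGB2 in Diff cells 1.49 above U87 on the log2 scale (adjusted p = 0.000225) and 1.34 above GSCs (adjusted p = 0.000642).

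CSMD3, a relative of CSMD2, measured 0.272 ± 0.103 TPM in U87, 0.120 ± 0.0397 in GSCs and 1.42 ± 0.169 in Diff cells (SD, n = 3 each), and with no filter its log2 fold change in Diff cells against GSCs was 1.11 (limma adjusted p = 0.000477). CPN2, a subunit of the carboxypeptidase that trims the fragments of C3 and C5, measured 0.698, 1.10 and 0.712 TPM in U87, 0.192, 0.130 and 0.0550 in GSCs, and 0, 0.0452 and 0 in Diff cells. U87 lay above both irradiated lines. C5AR2, a second receptor for the C5 fragment, measured 1.28 ± 0.168, 0.920 ± 0.0956 and 0.687 ± 0.142 TPM (SD, n = 3 each), with U87 highest as for C5AR1, but with no filter its limma adjusted p was 0.267 for GSCs and 0.0597 for Diff cells against U87. These genes were chosen after their values were seen.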
